A study of Mus musculus with 140 samples.

Results

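The elements described here are silencers of mouse embryonic fibroblasts (MEFs) and mouse embryonic stem cells (mESCs) that lie side by side without overlapping. A silencer belonged to this set when it lay on an autosome, overlapped no silencer of the other cell type, and had one of the other cell type within 1 kb, measured from edge to edge. The set was chosen by interval position in both lists, and so by the authors' calls; the fold listed with each interval was not used. It held 6036 MEF and 7348 mESC intervals, 13384 of the 204761 in both lists. These were 6.87% of the autosomal MEF intervals and 6.51% of the autosomal mESC intervals. Of the other autosomal intervals, 41475 MEF and 41286 mESC intervals overlapped the other list, and 40295 and 64240 overlapped nothing and lay more than 1 kb away.

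A silencer is a stretch of DNA that lowers transcription from a promoter it is linked to. Repressor proteins bound there recruit corepressors, histone deacetylases or Polycomb and heterochromatin complexes. The same stretch can act in 1 cell type and not in another, because each cell type holds its own set of DNA-binding factors. MEFs are differentiated connective tissue cells in which AP-1 factors are abundant, and mESCs are pluripotent cells held in that state by OCT4, SOX2 and their partners. Ss-STARR-seq reads this activity from a plasmid: cells receive a library of reporters that each carry a piece of genomic DNA, and the RNA made from each is set against the plasmid input.

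The libraries were 20 of the input plasmid, 64 of reporter RNA from MEFs and 56 of reporter RNA from mESCs, 140 in all, and the inserts were 300 to 400 bp long. MEFs grew in medium with serum, and mESCs in N2B27 medium with LIF, CHIR99021 and PD0325901. The labels give no strain, genotype, passage or clone for either cell type. The MEF libraries carry 4 output set numbers and the mESC libraries 3, but no values per library or set were analysed here. With 1 list for each cell type, every comparison is a description of the lists with no test. Intervals in parentheses after a share are exact binomial (Clopper-Pearson) 95% intervals that cover counting error only; neighbouring silencers are not independent. Read depth per interval is unknown, and no expression values were used to check the cells against their markers. Every listed fold was above 2, so an interval absent from a list may lie just under that limit.

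The sequences come from mutual pairs: a MEF and an mESC silencer that are each other's nearest neighbour of the other list and both overlap nothing. The first 6 sequences belong to 3 such pairs in which both silencers ranked high by fold within their own list. They are shown because each pair places a MEF silencer and an mESC silencer of high fold at close range. Capitals mark matches to any of 15 transcription factor motifs searched on both strands, and coordinates are of mm10, as listed, with the end base not included.
Pair near Nrp1, MEF silencer, chr8:127908661-127908711, plus strand: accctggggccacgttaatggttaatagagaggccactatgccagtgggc
Pair near Nrp1, mESC silencer, chr8:127908711-127908761, plus strand: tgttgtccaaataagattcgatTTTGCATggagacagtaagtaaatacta
Pair near Ino80b, MEF silencer, chr6:83127042-83127092, plus strand: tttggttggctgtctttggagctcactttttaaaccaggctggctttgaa
Pair near Ino80b, mESC silencer, chr6:83127301-83127401, plus strand: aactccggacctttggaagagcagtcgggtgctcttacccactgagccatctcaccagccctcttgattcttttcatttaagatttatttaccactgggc
Pair near Smim20, MEF silencer, chr5:53407480-53407630, plus strand: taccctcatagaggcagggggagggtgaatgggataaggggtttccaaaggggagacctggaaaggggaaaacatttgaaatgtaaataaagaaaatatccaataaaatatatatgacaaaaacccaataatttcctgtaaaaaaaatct
Pair near Smim20, mESC silencer, chr5:53406883-53406933, plus strand: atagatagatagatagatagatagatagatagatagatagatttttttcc
The pair near Nrp1, which codes for a semaphorin and VEGF receptor, abuts: the MEF silencer ends where the mESC silencer starts. It is intergenic, 451 kb from the Nrp1 start site, and free of soft-masked repeats. Its MEF fold was 5.20 and its mESC fold 6.58. The mESC silencer holds TTTGCAT, the reverse complement of the OCT motif ATGCAAA, and its MEF neighbour holds none of the motifs. Over all mutual pairs, 300 bp windows held the OCT motif on the MEF side alone in 193 and the mESC side alone in 196. The pair near Ino80b, which codes for a subunit of the INO80 chromatin remodeller, lies 1.79 kb from the start site with a gap of 209 bp. Its MEF fold was 5.17 and its mESC fold 14.5, and 94.0% of its mESC silencer was soft-masked. The pair near Smim20 had a gap of 547 bp and folds of 5.17 and 5.08, and its mESC silencer is largely a GATA tetranucleotide repeat that was 100% soft-masked.

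A further 3 sequences show how close an opposite pair can lie. Each is 1 unbroken run across both silencers, with the listed intervals in capitals and the gap in lower case. They were chosen after their values were seen, as pairs that span at most 300 bp.
Pair near Alox12e, mESC silencer first, chr11:70334149-70334269, plus strand: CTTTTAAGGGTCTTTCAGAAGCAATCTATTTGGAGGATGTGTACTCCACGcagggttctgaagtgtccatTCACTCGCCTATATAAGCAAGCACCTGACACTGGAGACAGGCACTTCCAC
Pair in Erc1, MEF silencer first, chr6:119708793-119709001, plus strand: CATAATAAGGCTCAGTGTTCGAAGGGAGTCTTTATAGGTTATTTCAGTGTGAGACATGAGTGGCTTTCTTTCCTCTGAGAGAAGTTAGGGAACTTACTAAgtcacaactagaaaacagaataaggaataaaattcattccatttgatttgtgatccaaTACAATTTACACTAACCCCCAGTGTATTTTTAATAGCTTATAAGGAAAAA
Pair near Trim13, mESC silencer first, chr14:61587751-61587921, plus strand: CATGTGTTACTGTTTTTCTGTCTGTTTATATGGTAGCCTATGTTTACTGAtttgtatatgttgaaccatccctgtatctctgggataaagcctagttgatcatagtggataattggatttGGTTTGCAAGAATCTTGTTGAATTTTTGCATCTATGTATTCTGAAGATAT
The pair near Alox12e, a lipoxygenase gene, had a gap of 20 bp, an mESC fold of 6.58 and a MEF fold of 4.24. The pair in an intron of Erc1, which codes for a scaffold protein, had a gap of 58 bp, a MEF fold of 3.68 and an mESC fold of 4.19. The pair near Trim13, an E3 ubiquitin ligase gene 10.4 kb away, had a gap of 70 bp, an mESC fold of 3.84 and a MEF fold of 4.08. Its MEF silencer holds TTTGCAT, the OCT match that the mESC silencer near Nrp1 also holds. Motif matches are not marked in these 3 runs. Each of these runs is shorter than an insert of the library.

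Per base of gap, neighbouring silencers of opposite lists were densest at short range. Of the MEF members, 35.9% lay within 200 bp of an mESC silencer, and of the mESC members, 34.5% lay within 200 bp of a MEF silencer. Per 100 bp of gap, 1082 MEF members fell at 0 to 200 bp, 554 at 200 to 400 bp and 461 at 400 to 1000 bp. In mESCs these densities were 1267, 700 and 569. Beyond the limit, at 1000 to 2000 bp, the density was 399 for MEF and 508 for mESC intervals, close to the 416 and 520 at 800 to 1000 bp. Most of the decline fell between the ranges of 0 to 200 and 200 to 400 bp, and 1 kb marks no break in it. In finer bins the density was 957 MEF and 1152 mESC intervals at 100 to 200 bp, and 554 and 732 at 200 to 300 bp. The commonest gap was 50 to 100 bp, at 1484 MEF and 1708 mESC intervals per 100 bp, against 854 and 962 above 0 and up to 50 bp.

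Gaps between silencers of the same list were densest at short range too. These counts cover every gap between consecutive intervals of the whole list. Cross-list counts cover only intervals that overlap nothing in the other list, each at its nearer side. The levels of these densities are therefore not comparable. The next interval of the same list lay 0 to 200 bp away at a density of 2222.5 per 100 bp in MEFs and 3068.5 in mESCs. At 200 to 400 bp the same-list density was 463 in MEFs and 711 in mESCs. Intervals of a list never lay less than 50 bp apart, whereas 38 MEF and 47 mESC members touched an interval of the other list at a gap of 0 bp. Silencers just inside and just outside the 1 kb limit were alike in fold. The 195 MEF members in the last 50 bp inside it had a median fold of 2.27, and the 214 MEF intervals in the first 50 bp outside it had 2.23. In mESCs the medians were 2.30 over 253 members and 2.34 over 254 intervals. At the other edge, the 465 MEF members with a gap of 0 to 50 bp had a median fold of 2.37, and the 5874 MEF intervals that overlapped by 1 to 50 bp had 2.50. The mESC values were 2.43 over 528 members and 2.53 over 5712 intervals.

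**Figure D1:**
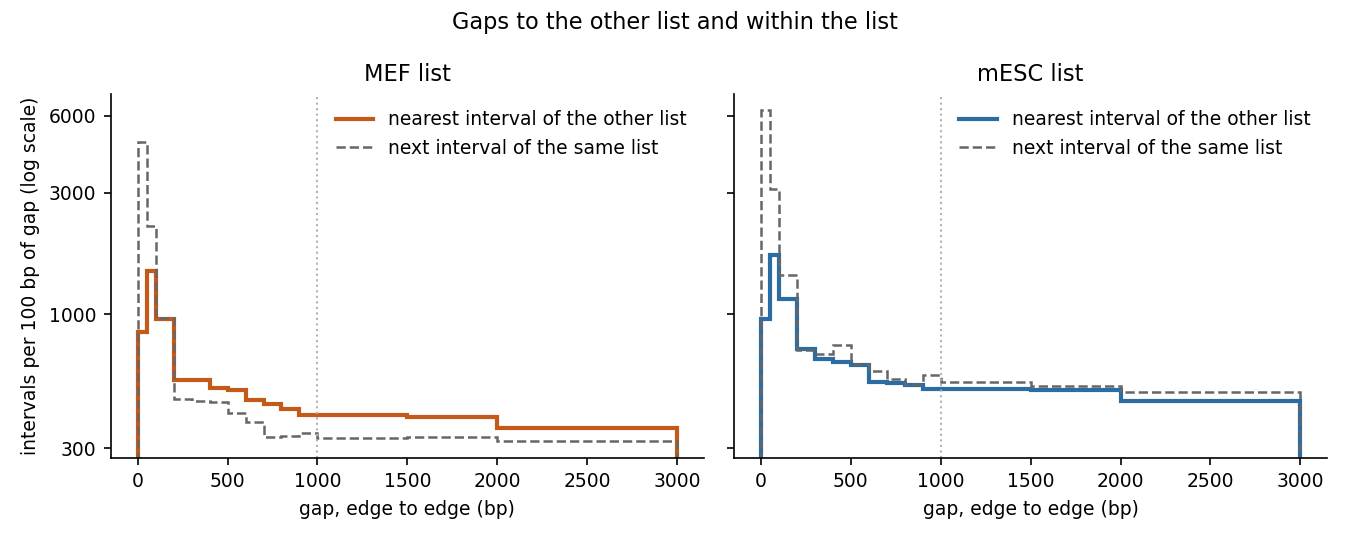
Number of intervals per 100 bp of gap (log scale) against the gap in bp, for the MEF list (left) and the mESC list (right). Solid lines give the nearest interval of the other list, for intervals that overlap nothing in it. Dashed lines give the next interval of the same list for all intervals, so the lines count unlike sets. The dotted line marks the 1000 bp limit, and abutting intervals are left out. Cross-list density falls from 1484 MEF and 1708 mESC intervals at 50 to 100 bp to 399 and 508 beyond 1000 bp.

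Many members flank a silencer that both cell types share. Of the MEF members, 2736, or 45.3% (44.1 to 46.6), had as nearest mESC neighbour an interval that itself overlapped another MEF silencer. Of the mESC members, 4026, or 54.8% (53.6 to 55.9), had such a neighbour. For scale, 36.6% of all autosomal mESC and 47.2% of all autosomal MEF intervals overlapped the other list. Mutual pairs accounted for 3054 members of each list, 50.6% of MEF and 41.6% of mESC members. The remaining 246 MEF and 268 mESC members had a neighbour that overlapped nothing but was nearer to yet another interval. Silencers on both sides were rare, at 237 MEF and 240 mESC members.

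Flanking a shared silencer was commonest at the shortest gaps. The nearest neighbour was shared for 57.3% of MEF members at 50 to 100 bp and for 36.4% at 900 to 1000 bp. Beyond the limit the share stayed near that lower level, at 36.6% for MEF intervals at 1000 to 1500 bp. In mESCs the corresponding shares were 63.2%, 48.0% and 49.2%. Abutting intervals went the other way, since the neighbour was shared for 7.89% of MEF and 25.5% of mESC members with a gap of 0 bp.

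**Figure D2:**
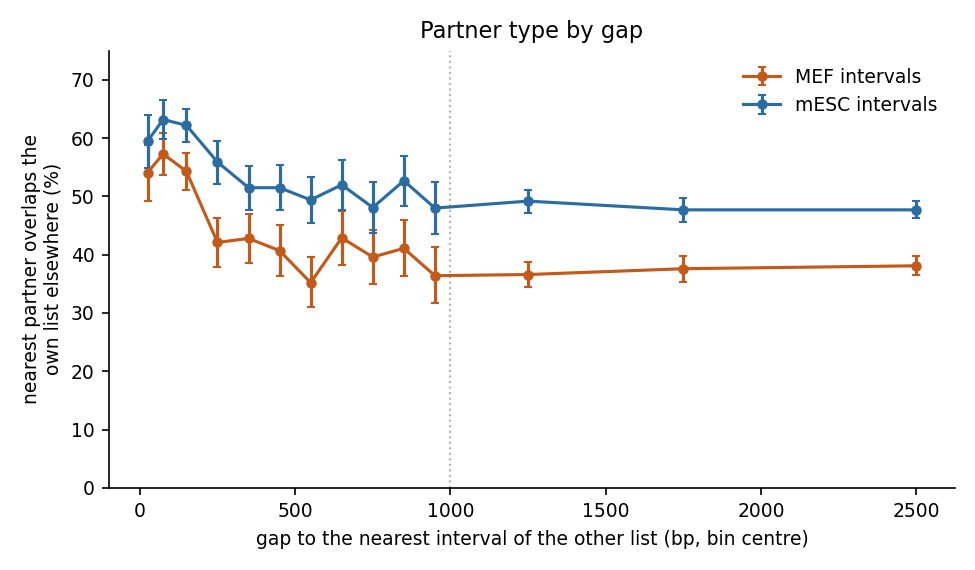
Share of intervals whose nearest neighbour in the other list overlaps another interval of their own list, against the gap in bp (bin centre), with exact binomial 95% bars. MEF intervals go from 57.3% at 50 to 100 bp to 36.4% at 900 to 1000 bp and mESC intervals from 63.2% to 48.0%, and both are level beyond the dotted 1000 bp limit.

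Members beside a shared silencer were shorter than it. Their median length was 100 bp in MEFs and 147 bp in mESCs, against 250 and 238 bp for the shared neighbour. By construction, nearly all of them also had the shared silencer's own-list copy close by, within 1 kb for 98.5% of MEF and 99.2% of mESC members. The median fold of these MEF members was 2.34, and that of the MEF copy was 2.48. The mESC members had a median fold of 2.43 and the mESC copy 2.56. The member's fold was below that of its copy in 57.5% of MEF and 55.1% of mESC cases. The neighbours themselves were ordinary shared silencers by fold: 2.53 for the mESC neighbours of MEF members and 2.46 for the MEF neighbours of mESC members, the same medians as over all overlapping intervals.

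Linking all silencers within 1 kb, whatever their list, gave 9185 groups with at least 1 member. A lone MEF silencer with a lone mESC silencer made up 2453 of them (26.7%). In 6255 groups (68.1%) at least 1 overlapping MEF and mESC pair was present, and 4915 (53.5%) were exactly 1 overlapping pair with 1 member beside it. The median group spanned 897 bp and the longest 4350 bp. Large groups were few, with 6 or more intervals in 123 (1.34%).

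In the 3054 mutual pairs neither silencer overlaps the other list. Their median gap was 400 bp (quartiles 150 and 674), and their median outer span was 809 bp. The gap was at most 100 bp in 543 pairs (17.8%) and above 500 bp in 1224 (40.1%). The whole pair spanned at most 400 bp, the upper insert length, in 599 pairs, or 19.6% (18.2 to 21.1). The limit of 1 kb largely sets these values: with 500 bp and 2 kb the median gap was 198 and 800 bp, and 32.7% and 11.5% of pairs spanned at most 400 bp. In the pairs that span more, no insert of the labelled length could hold both listed intervals whole.

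Orientation along the chromosome showed no side preference. The MEF silencer had the lower coordinate in 1553 pairs, or 50.9% (49.1 to 52.6). It was longer in 1294 pairs and shorter in 1387. It was richer in GC in 1491 pairs and poorer in 1522.

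The folds of a mutual pair did not follow each other. Across the 3054 pairs Spearman's rho between the MEF and the mESC fold was -0.0163, and it was -0.00923 in the 963 pairs with a gap of at most 200 bp. Over 40957 overlapping MEF intervals with 1 mESC interval, rho was 0.498. For MEF intervals whose nearest mESC silencer lay at 1 to 2 kb it was -0.00374 (n = 3993). These are descriptions across sites of 1 list each; overlapping intervals share sequence and reads of the same inserts. In the lowest decile of MEF fold, the mESC silencer of a mutual pair had a median percentile of 42.8 within its list, and in the highest decile 41.1. For overlapping intervals the same values were 37.3 and 89.9.

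**Figure D3:**
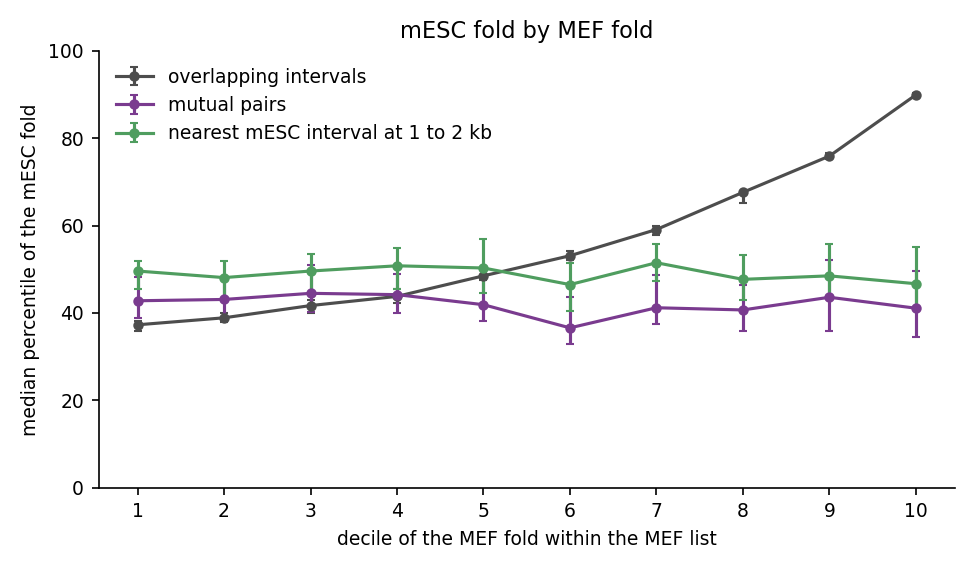
Median percentile of the mESC fold within the mESC list, by decile of the MEF fold within the MEF list, for overlapping intervals, mutual pairs and MEF intervals whose nearest mESC silencer lies at 1 to 2 kb; bars are 95% intervals of the median from order statistics. Mutual pairs go from 42.8 in the lowest to 41.1 in the highest decile, and overlapping intervals from 37.3 to 89.9.

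The silencers of mutual pairs had a median fold percentile of 40.8 within the MEF list and 42.2 within the mESC list. Both folds lay in the upper part of their list, above its median, in 495 pairs (16.2%), and both lay below it in 1045 (34.2%). Both folds exceeded 4 in 10 pairs (0.327%), where 3.67% of the MEF and 5.44% of the mESC silencers of mutual pairs did so. Whether these joint counts differ from what the shares in each list would give was not tested. Named pairs are the 10 with the highest value for the lower of their fold percentiles, and they were chosen on fold, so their folds are no result. Their MEF folds ran from 3.91 to 5.20 and their mESC folds from 4.06 to 14.5.

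These 10 pairs differed in spacing and in setting. A pair in an intron of A830018L16Rik at chr1:11663759-11664203 abutted, with folds of 4.97 in MEFs and 5.76 in mESCs. A pair in an intron of Actr3, a subunit of the complex that nucleates branched actin, had a gap of 408 bp and folds of 4.40 in MEFs and 6.10 in mESCs. The pair 17.4 kb from the start of Fgf14, a fibroblast growth factor homologue that acts on sodium channels, had a gap of 890 bp, and both its silencers were 100% soft-masked. A pair in an intron of Vti1a, a SNARE protein of vesicle transport, had a gap of 584 bp with an unmasked MEF silencer and a fully masked mESC silencer. A pair in an intron of Stk38, a kinase of the NDR family, had a gap of 625 bp, and a pair 205 kb from Snx16, a sorting nexin, had 245 bp. Of the 10 pairs, 4 lay in introns and the others were intergenic.

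**Figure D4:**
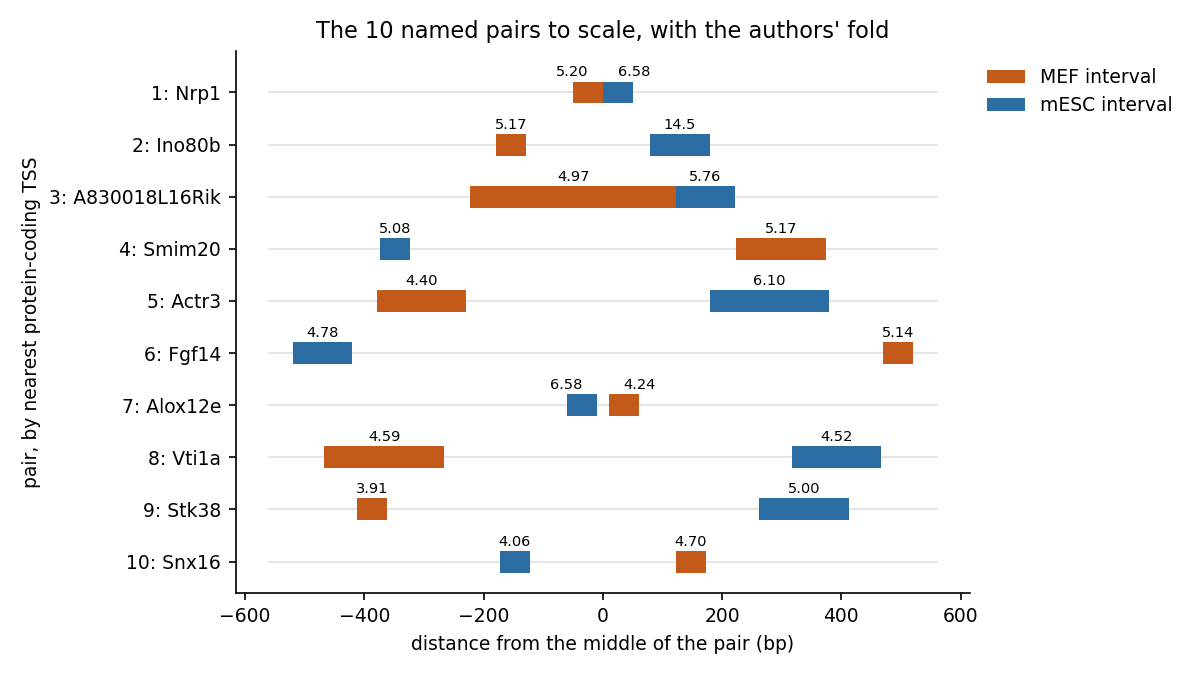
The 10 named mutual pairs drawn to scale, with the distance in bp from the middle of each pair on the x axis and the gene of the nearest protein-coding start site on the y axis. Boxes are the listed MEF and mESC intervals and numbers the authors' fold; gaps range from 0 bp near Nrp1 and in A830018L16Rik to 890 bp near Fgf14.

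Members were shorter than overlapping intervals and had a lower median fold. The median length was 150 bp in both lists, against 250 bp for overlapping intervals. The shortest possible interval, 50 bp, made up 27.8% of MEF and 26.8% of mESC members, against 21.4% and 19.7% of the list-only intervals farther away and 9.75% and 7.66% of overlapping ones. The median fold of members was 2.29 in MEFs (quartiles 2.11 and 2.66) and 2.38 in mESCs (2.15 and 2.87). Farther list-only intervals had medians of 2.28 and 2.35, and overlapping intervals 2.46 and 2.53. Folds above 4 were found in 4.95% of MEF and 8.22% of mESC members, against 5.72% and 7.78% of all autosomal intervals. Among farther list-only intervals the shares were 4.84% and 7.11%. Folds of the lists were not set against each other, because their scaling is not given in the sources used here.

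The fold differed with the kind of neighbour in both lists. Members beside a shared silencer exceeded a fold of 4 in 6.32% of MEF and 10.1% of mESC cases, against 3.67% and 5.44% in mutual pairs. The MEF member with the highest fold, 35.4, and the mESC member with the highest, 29.8, both flanked a shared silencer. The highest folds in mutual pairs were 29.9 and 17.6.

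In base composition members resembled the rest of their list. Median GC was 40.1% in MEF and 40.0% in mESC members, against 40.0% over all autosomal intervals of either list. Pooled over bases, GC was 40.6% in MEF and 40.7% in mESC members. The pooled value was 42.0% over 23959 evenly spaced 300 bp windows of the genome. Soft-masked repeats covered on average 35.9% of a MEF member and 39.4% of an mESC member. Farther list-only intervals had 34.6% and 39.9%, overlapping intervals 42.5% in both lists, and genome windows 33.4%. Members were thus less repeat-rich than overlapping silencers in both cell types. Within mutual pairs the mESC silencer was the more masked one in 1457 pairs (47.7%) and the MEF silencer in 1316 (43.1%).

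The silencers of a pair were more alike in repeat content than in GC. Across mutual pairs rho was 0.277 for the soft-masked share and 0.0409 for GC, against 0.918 and 0.801 for overlapping intervals. For MEF intervals whose nearest mESC silencer lay at 1 to 2 kb it was 0.182 and 0.0622. The same order thus held outside the set. The sequence between the silencers of a mutual pair had a GC content of 40.6%, equal to that of the MEF silencers and near the 40.8% of the mESC silencers. It was 34.9% soft-masked, against 35.3% and 39.4%.

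Members lay mostly in introns and between genes, as did other silencers and genome windows. Their median distance to a gene start was shorter than that of other silencers. The median distance to a protein-coding start site was 46.3 kb for MEF and 45.5 kb for mESC members. It was 57.8 and 53.8 kb for list-only intervals farther away and 55.3 and 55.2 kb for overlapping ones. Introns held 47.1% of MEF members (45.9 to 48.4) and 48.5% of mESC members (47.4 to 49.7), against 45.2% and 45.7% of farther list-only intervals. They held 45.5% and 45.7% of all autosomal intervals of the lists and 42.2% of genome windows. Between genes lay 47.1% of MEF and 45.5% of mESC members, against 48.8% and 48.5% of all autosomal intervals and 50.1% of genome windows. Promoters, taken as 1 kb either side of a start site, held 3.23% (2.80 to 3.71) and 3.52% (3.11 to 3.97), against 3.42% and 3.51% of all autosomal intervals of the lists and 4.58% of genome windows. Coding exons held 0.861% of MEF members (0.644 to 1.13), against 0.553% of farther list-only and 0.468% of overlapping MEF intervals. In mESCs the coding exon shares were 0.531%, 0.534% and 0.538%. All these shares of silencers in coding exons lay below the 1.22% of genome windows.

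The silencers of a mutual pair, at most 1 kb apart, mostly fell in the same annotation class. This was so in 2923 pairs (95.7%), with 1412 pairs in introns, 1411 between genes and 68 at promoters. Of genome windows, 42.2% lay in introns and 50.1% between genes. The share of pairs in 1 class and the count of start sites in gaps were not set against random sites at the same spacing. A protein-coding start site lay in the gap of 5 pairs. In 1 of them the start site was that of the zinc finger gene Zfp934, with a gap of 972 bp, a MEF fold of 2.97 and an mESC fold of 2.34. Others lay at D3Ertd751e, with folds of 2.29 in MEFs and 2.13 in mESCs, and at Cep57l1, a paralogue of a centrosomal protein gene, with 2.08 and 2.41. The pair at Tmprss11d, which codes for an airway serine protease, had folds of 2.02 and 2.46.

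Most motif shares of members were near those of the rest of each list. The search covered 18 short motifs, both strands, in 300 bp around the middle of each interval; such a window can reach beyond the listed interval. The AP-1 motif of FOS and JUN was searched as TGANTCA with any central base. TGAATCA therefore counted too, and matches were not split by that base. Matches occurred in 10.1% of MEF members (9.39 to 10.9) and 8.38% of mESC members (7.76 to 9.04). They occurred in 9.27% of all MEF, 8.18% of all mESC and 8.81% of genome windows, and in 7.85% of 31365 promoters of the same length. Among farther list-only intervals the share was 9.86% in MEFs and 8.02% in mESCs. The TEAD motif (GGAATG) occurred in 16.4% and 15.9% of members, RUNX (TGTGGT) in 23.7% and 24.7%, and OCT (ATGCAAA) in 6.91% and 7.43%. Over all intervals of the lists the shares were 16.2% and 16.4% for TEAD, 23.7% and 24.5% for RUNX, and 7.30% and 7.29% for OCT. A run of 8 T or A bases was found in 19.6% of MEF and 18.3% of mESC members. Over all intervals of the lists the share was 19.5% and 19.1%, and in genome windows 12.0%. The GFI1 motif (AAATCNC) was found in 15.9% of MEF members and 19.0% of mESC members (18.1 to 19.9). It was found in 16.7% and 17.6% of all intervals and in 16.1% and 17.4% of farther list-only ones. The MYC E-box (CACGTG) was found in 3.16% of MEF members and 2.12% of mESC members (1.81 to 2.48). It was found in 2.84% and 2.52% of all intervals and in 3.06% and 2.53% of farther list-only ones. The GC box (GGGCGG) bound by KLF and SP factors was found in 2.29% and 2.63% of members and in 2.57% and 2.85% of all intervals. In genome windows it was found in 3.10%, and in promoters in 36.0%.

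A mutual pair offers a comparison within the same locus: which side holds the motif when only 1 side does. AP-1 was on the MEF side alone in 287 pairs and on the mESC side alone in 210, so the MEF side held it in 57.7% (53.3 to 62.1). In whole listed intervals, which do not overlap, the counts were 214 and 139, or 60.6% (55.3 to 65.8). The E-box CACGTG, bound by MYC and USF, was on the MEF side in 99 pairs and on the mESC side in 62, or 61.5% (53.5 to 69.0). The motif AAATCNC, which contains the core bound by the repressor GFI1, went the other way, with 363 pairs on the MEF and 456 on the mESC side, or 44.3% (40.9 to 47.8). For these 3 motifs the binomial interval did not reach 50%, in windows or in whole intervals. For the E-box and GFI1 it did reach 50% with a limit of 500 bp, with both lists cut at their median fold, and with members under 50% masked. For SOX (ACAATGG), a run of T or A, and CpG the window interval lay above 50% but the whole-interval one did not. TEAD sites were on either side in 374 pairs each, and OCT sites in 193 and 196. No allowance was made for 18 motifs having been searched. In farther list-only intervals the shares of AP-1 and the E-box were also higher in MEFs, and that of GFI1 in mESCs.

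**Figure D5:**
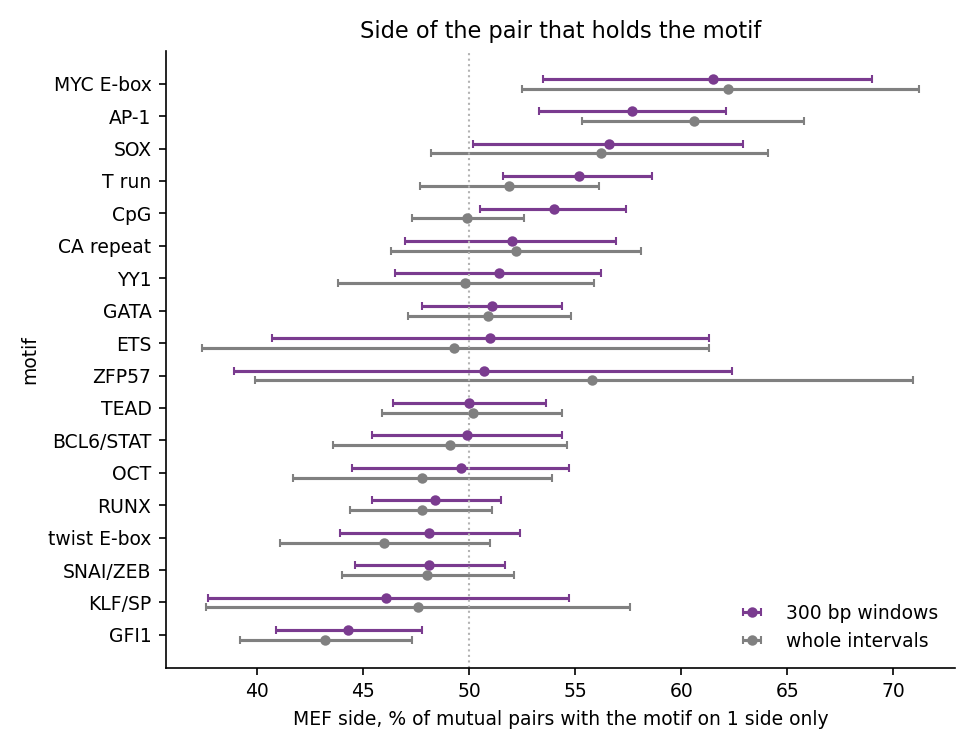
For each of 18 motifs, the percentage of mutual pairs with the motif on 1 side only that had it on the MEF side, in 300 bp windows and in whole intervals, with exact binomial 95% bars; the dotted line is 50%. AP-1 (57.7% in windows) and the MYC E-box (61.5%) lie on the MEF side, GFI1 (44.3%) on the mESC side, and TEAD, with 374 pairs on each side, at the dotted line.

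Sequences from pairs with such a motif on 1 side are printed here to show where it sits. Capitals mark the matches, coordinates are of mm10, and the pairs were chosen after values were seen, by the lower of their fold percentiles.
AP-1 in the MEF silencer far from Ntrk3, chr7:77920751-77920951, plus strand: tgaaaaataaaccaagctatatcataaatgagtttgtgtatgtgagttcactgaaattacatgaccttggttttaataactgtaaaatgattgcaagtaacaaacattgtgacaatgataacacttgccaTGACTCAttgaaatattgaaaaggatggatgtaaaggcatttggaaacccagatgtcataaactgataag
AP-1 in the MEF silencer near Gm8882, chr6:132454187-132454237, plus strand: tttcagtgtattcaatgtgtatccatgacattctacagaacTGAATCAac
MYC E-box in the MEF silencer in 4930564D02Rik, chr3:105068771-105068921, plus strand: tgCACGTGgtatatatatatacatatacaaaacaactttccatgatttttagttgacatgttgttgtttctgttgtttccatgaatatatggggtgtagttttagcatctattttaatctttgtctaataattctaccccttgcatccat
MYC E-box in the MEF silencer in Umad1, chr6:8359301-8359401, plus strand: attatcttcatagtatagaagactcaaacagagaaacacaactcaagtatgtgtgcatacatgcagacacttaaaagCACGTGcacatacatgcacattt
GFI1 motif in the mESC silencer in Stk38, chr17:28993996-28994146, plus strand: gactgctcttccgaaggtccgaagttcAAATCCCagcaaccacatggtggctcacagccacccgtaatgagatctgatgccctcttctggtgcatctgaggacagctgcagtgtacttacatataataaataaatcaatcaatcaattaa
GFI1 motif in the mESC silencer far from Trim52, chr14:106393483-106393683, plus strand: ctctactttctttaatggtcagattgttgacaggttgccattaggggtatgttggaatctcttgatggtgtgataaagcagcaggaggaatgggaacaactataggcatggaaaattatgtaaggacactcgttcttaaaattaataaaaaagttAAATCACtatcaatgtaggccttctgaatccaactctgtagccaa
The intergenic pair 656 kb from Ntrk3 had a MEF fold of 3.07, an mESC fold of 3.65 and a gap of 700 bp. Its MEF silencer holds 1 AP-1 match and its mESC neighbour none. The pair in Umad1 had a MEF fold of 2.60 and an mESC fold of 2.88. The mESC silencer in Stk38 had a fold of 5.00 and was 100% soft-masked, so its GFI1 match lies in a repeat. A match is a description of these letters and does not show that a factor binds there.

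Among genes, members were spread widely. Of 20780 autosomal protein-coding genes, 4387 (21.1%) had at least 1 member in the gene body plus 10 kb on either side, and 1806 (8.69%) had a mutual pair there. Within gene bodies alone, 2957 genes held a member, 407 held 4 or more, and 16 held 10 or more. The number of members per gene rose with gene length, with Spearman's rho of 0.427 across genes. The 15 genes with the most members had a median length of 1138.6 kb, against 17.6 kb over all genes.

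Long genes head the list by count. Cntnap2, a neurexin-like cell adhesion gene, held 9 MEF and 11 mESC members with 5 mutual pairs, or 8.91 members per Mb. Dlg2, a postsynaptic scaffold gene, held 9 and 8 with 6 pairs, and Nrg3, a ligand of the receptor ERBB4, held 7 and 7 with 3 pairs. Pcdh15, a protocadherin of inner ear hair cells, held 9 and 5. Of the others, Lsamp held 4 and 9, Pde4d, a cyclic AMP phosphodiesterase, 6 and 7, and Foxp2, a forkhead repressor, 4 and 7. Galntl6 held 2 and 9. All gene bodies together held 6.23 members per Mb; among these genes the density ran from 4.84 in Ptprd, a receptor tyrosine phosphatase, to 41.2 in Sgms1, a sphingomyelin synthase. Foxp2 had 20.3 per Mb, and Gmds, a GDP-mannose dehydratase, held 13 members in 519 kb. Members made up 10.2% of all silencers in these 15 genes and 7.11% in all gene bodies, and the genes were picked for their number of members.

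Short genes led by density. Ube2t, a ubiquitin-conjugating enzyme of the Fanconi anaemia pathway, held 2 MEF and 2 mESC members in 11.6 kb. Rragd, a GTPase of amino acid signalling to mTORC1, held 3 and 4 with 3 mutual pairs in 39.1 kb. Gstz1, Tra2a, a splicing factor, and Carnmt1, a methyltransferase, held 4, 4 and 6 members. These genes too were chosen for the count.

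Of 12 gene lists, Polycomb genes and genes of HP1 and histone H3 lysine 9 methylation had the highest shares of genes with a member after the list of long adhesion genes. Among Polycomb genes 13 of 29 (44.8%) had a member, against 21.1% of all genes, and the list carried 15.1 members per Mb against 6.27. Jarid2, a partner of Polycomb repressive complex 2, had 4 MEF and 3 mESC members with 3 mutual pairs. Suz12, a core subunit of that complex, had 2 and 2 with 2 pairs. Among genes of HP1 and histone H3 lysine 9 methylation, 7 of 16 (43.8%) had a member, with 18.8 per Mb. Pphln1, a subunit of the HUSH silencing complex, had 3 and 2, Atf7ip, a partner of the methyltransferase SETDB1, 2 and 2, and Cbx5, which codes for HP1 alpha, 1 and 2. Silencers of every kind were dense at both lists, with 116 and 161 intervals per Mb against 87.7 over all genes. The share of those silencers that were members was 13.0% and 11.7%, against 7.15%. The part of local silencer density in these counts was not tested, and the lists were drawn up with results of these data known.

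Other chromatin lists were closer to the background. Among corepressors and histone deacetylases 8 of 32 genes had a member, at 8.13 per Mb, led by Gatad2b, a subunit of the NuRD complex, with 4 MEF and 4 mESC members. Hdac9 and the corepressor Ncor1 had 2 and 2 each. Of DNA methylation genes 2 of 12 had a member: the demethylase Tet1 had 2 and 2, and Uhrf2 had 2 and 1. Of repressor zinc finger and lineage factors 7 of 24 (29.2%) had a member, at 4.42 per Mb. Zbtb20 had 4 and 5, Prdm1 2 and 1, and Ikzf1 1 and 1.

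Lists of genes that define the 2 cell types held fewer members per Mb than the 6.27 of all genes. So did other lists, among them repressor zinc finger and lineage factors at 4.42 and epithelial-mesenchymal transition factors at 5.51. Silencers of every kind numbered 87.9 per Mb at core pluripotency, 70.4 at fibroblast and 60.9 at AP-1 and TEAD-YAP genes. Over all genes they numbered 87.7, and their part in these counts was not tested. Among core pluripotency genes 5 of 29 (17.2%) had a member and 0 had a mutual pair, at 4.31 members per Mb. Esrrb, a nuclear receptor of naive pluripotency, Dppa3 and Gdf3 each had 1 mESC member and 0 MEF members; the list as a whole held 2 MEF and 3 mESC members. Of fibroblast and mesenchymal genes 7 of 30 (23.3%) had a member, at 3.46 per Mb. Col1a2, a type I collagen chain, had 1 MEF and 1 mESC member in 1 mutual pair, Runx2 had 1 and 1, and Acta2, smooth muscle actin, had 0 and 1. In this list 7 of 9 members were mESC silencers, against 5029 of 9024 over all protein-coding genes. Of AP-1 and TEAD-YAP genes 2 of 20 (10.0%) had a member, Fosl2 with 2 MEF and 1 mESC, and Wwtr1, which codes for TAZ, with 0 and 1.

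The remaining lists fell on either side. Of epithelial junction genes 8 of 22 (36.4%) had a member, at 11.2 per Mb, among them the splicing regulator Esrp1 with 1 MEF and 2 mESC members. Of p53 and cell cycle brake genes 4 of 15 (26.7%) had a member, with the retinoblastoma family gene Rbl1 at 2 and 3, the p53 inhibitor Mdm4 at 1 and 2, and Cdkn2a at 1 and 0. Of transcription factors of the epithelial-mesenchymal transition 3 of 14 (21.4%) had a member; the epithelial factor Grhl2 had 2 and 1 and Twist1 had 0 and 1. Of neurexin, neuroligin and contactin genes 12 of 18 (66.7%) had a member, but their median territory was 546 kb against 37.6 kb and their density 4.66 per Mb, below that of all genes. Cntn4, a contactin, had 2 and 2. No list was tested against others, and 1 interval counted for each gene whose territory held it.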

How the data were processed

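Each list gives positions and a fold, the linear ratio deposited by the authors, whose construction the sources used here do not give. Bowtie2 and SAMtools are named in the submitters' processing notes, with the build hg38; the design text of the series gives mm10. Of the listed intervals, 0 ended beyond an mm10 chromosome, and mm10 was used. Starts were read as counting from 1 and ends as exclusive; the sources used here do not give this, and counting from 0 would shift each sequence by 1 base. Sequence and soft masking came from GRCm38.p6, genes from the GENCODE M21 basic annotation, and promoters for motif shares from RefSeq on the same assembly. Python 3.11.15, numpy 2.4.6, pandas 2.3.3, scipy 1.17.1, pysam 0.24.0 and matplotlib 3.10.9 were used. Annotation was taken at the interval midpoint. Membership was checked on simulated intervals with known answers. The members, gene lists, motifs and the rules for named pairs and genes were chosen with earlier results of these data known. Named pairs were the 10 with the highest lower fold percentile off chromosome 18 and those with a start site in the gap; named genes were the 15 with the most members, the 5 densest with at least 4, and up to 3 per gene list. Alternatives were limits of 500 bp and 2 kb, closed intervals, only intervals at or above the median fold, members under 50% masked, a promoter of 5 kb and whole-interval motifs. Motif sides in pairs were examined after values were seen. Some genes and pairs that these rules pick are not reported here.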

Additional observations from a re-analysis of the deposited data

How the results depend on the processing

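Of 108 recomputed values, 68 moved by less than their counting interval or by less than 1.5 times for counts, and 40 moved further. A reversal was defined only for the share of pairs with a motif on the MEF side, and 0 of those values reversed. The cause of the moves was not tested beyond what each alternative changes by construction. With limits of 500 bp and 2 kb, MEF members numbered 3788 and 10029, mESC members 4588 and 12428, and mutual pairs 1830 and 5193. Their median gap was 198 and 800 bp, and 32.7% and 11.5% spanned at most 400 bp. The share beside a shared silencer was 49.1% and 42.0% in MEFs and 57.7% and 52.2% in mESCs, and the median fold at 500 bp was 2.31 and 2.40. With only intervals at or above the median fold there were 1962 MEF and 2357 mESC members and 1121 pairs, with a median gap of 356 bp and 21.7% at most 400 bp. Beside a shared silencer were then 41.0% and 49.7%; the median folds were 2.72 and 2.90, GC 39.6% and 39.5%, and masked share 38.8% and 42.9%. Under 50% masking left 4717 mESC members and 1545 pairs, median folds of 2.28 and 2.35, an mESC GC of 39.3%, and AP-1 in 11.6% and 9.46%. Promoters of 5 kb held 19.7% in both lists, and whole intervals held AP-1 in 6.39% and 4.98%. Across alternatives the MEF side held AP-1 in 56.9% to 60.6%, the MYC E-box in 56.9% to 62.2% and GFI1 in 43.2% to 46.7% of pairs with it on 1 side, but the interval reached 50% under some of them: for the E-box at 500 bp, at the median fold and under 50% masking, and for GFI1 at 500 bp, at the median fold and under 50% masking. No paired analysis was possible because each cell type has 1 list and no result comes from a test.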

Other observations

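Members were commoner where silencers of either list were dense. The rule itself favours this direction, because it asks for an interval of the other list within 1 kb. With 1 Mb bins sorted by their number of intervals, 5.45% of MEF and 5.02% of mESC intervals were members in bins with the fewest, and 8.23% and 7.87% in bins with the most (105 to 202 intervals). The share of overlapping intervals went across the same bins from 45.7% to 49.9% in MEFs and from 34.8% to 38.4% in mESCs. By chromosome, MEF members ranged from 5.93% of the autosomal list on chromosome 15 to 8.10% on chromosome 19, and mESC members from 5.54% on chromosome 15 to 7.04% on chromosome 4.

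The largest linked groups held 8 intervals each. The group in Kalrn, which codes for a guanine nucleotide exchange factor of neurons, spanned 2550 bp, with 5 MEF and 3 mESC intervals, 4 of them members. Another, 2700 bp long and 13.7 kb from Adamts6, was 74.6% soft-masked.

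Most interval lengths are multiples of 50 bp (87.0% in MEFs and 86.2% in mESCs), and 40.7% and 40.9% of starts lie on a common 50 bp grid. Where the MEF start of a mutual pair lay off the common grid, the mESC start shared its phase in 14.9% (9.06 to 22.5) of pairs with a gap of at most 50 bp and in 2.22% (1.30 to 3.53) of pairs with a gap over 500 bp. This agreement in phase was not tested further.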
